A study of Bos taurus with 6 samples.

Results

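The genes described here are modulators of Wnt signalling in the longissimus dorsi, the long muscle of the back, of cattle of the breeds Shandong black (B) and Luxi (L). Of 10 names chosen, namely RSPO3, FRZB, SFRP1, SFRP2, SFRP4, DKK3, LGR4, LGR5, AXIN2 and ZNRF3, 9 matched a gene name in the transcript tables, among 17258 genes in all. LGR5 matched none and was not analysed here. The names were proposed with the breed difference of this series in view, and RSPO3 and FRZB were put forward because of it, so the levels of these 9 genes are given as a description, without a test.

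RNA-Seq was carried out on 1 muscle library from each of 6 animals aged 18 months, 3 Shandong black (B1, B2 and B3) and 3 Luxi (L1, L2 and L3). Luxi is a local yellow cattle breed, and Shandong black is a bred strain with Luxi ancestry. The labels name no treatment, and the animals of each breed came from a supplier of their own, so breed and supplier cannot be told apart. Levels are in FPKM, the fragments per kilobase of transcript scaled to the mapped fragments of the library, summed over the transcripts of a gene, so that they can be compared between genes per unit of length. A fold change is on the log2(FPKM + 1) scale, Luxi over Shandong black, which understates the change of genes with low levels.

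Wnt proteins are secreted signals that bind Frizzled receptors with an LRP co-receptor and stabilise β-catenin, which then acts in the nucleus. R-spondins such as RSPO3 bind LGR receptors and the ubiquitin ligases ZNRF3 and RNF43, which otherwise remove Frizzled from the cell surface, and so raise the response to Wnt. Secreted Frizzled-related proteins, to which FRZB belongs, bind Wnt outside the cell, and AXIN2 is switched on by the pathway and feeds back to lower it. In muscle, Wnt signals act on satellite cells, on the connective tissue cells between the fibres and on the choice between muscle and fat.

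The libraries held 14.08 to 14.62 aligned gigabases in Shandong black and 17.52 to 17.99 in Luxi cattle. L1 stood apart from the other Luxi libraries, with a Pearson correlation across genes of 0.878 with L2 and 0.894 with L3, against 0.947 between L2 and L3 and 0.934 to 0.967 within Shandong black. The muscle fibre markers summed to 43000 to 55100 FPKM in Shandong black and 23500 to 72100 FPKM in Luxi cattle, the lowest in L1. ACTA1 was the highest of them in every animal, whereas MYH1 was at 0.114 and 0.125 FPKM in B1 and B2. XIST, the RNA that coats the inactive X chromosome in female cells, was at 10.7, 4.83 and 14.0 FPKM in B1, B2 and B3 and at 0, 0 and 0.207 FPKM in L1, L2 and L3. The labels give no sex, and a difference between the breeds cannot be told apart from whatever XIST marks here. The libraries are also from whole muscle, where more cells of a type and more RNA per cell cannot be told apart.

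RSPO3, the R-spondin ligand, was high in all Shandong black animals and low in all Luxi animals. Its level was 50.2 FPKM in B1, 10.7 in B2 and 35.1 in B3, against 0.590 in L1, 0.278 in L2 and 1.66 in L3. The breeds did not overlap, and B2, the lowest Shandong black animal, was still well above L3, the highest Luxi animal. The mean was 32.0 ± 19.9 FPKM (SD, n = 3) in Shandong black and 0.844 ± 0.726 FPKM (SD, n = 3) in Luxi cattle, a ratio of means of 37.9. The log2 fold change was -3.99 (SE 0.71), and it lay between -4.61 without B2 and -3.55 without B1. By mean level RSPO3 was at rank 685 of the 17258 genes in Shandong black and at rank 9825 in Luxi cattle.

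FRZB, a secreted inhibitor first known from cartilage, had the opposite pattern. Its level was 0.312 FPKM in B1, 1.76 in B2 and 0.899 in B3, against 45.6 in L1, 7.23 in L2 and 13.4 in L3. No Shandong black animal reached the Luxi range, in which the animals were far apart and L1 was much the highest. The mean was 0.991 ± 0.728 FPKM (SD, n = 3) in Shandong black and 22.1 ± 20.6 FPKM (SD, n = 3) in Luxi cattle, a ratio of means of 22.3. The log2 fold change was 3.22 (SE 0.80), from 2.52 without L1, the library that stood apart, to 3.77 without L2. Its rank by mean level was 8903 in Shandong black and 1080 in Luxi cattle.

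Set side by side in each animal, and as a description only because both genes were chosen for this contrast, the log2 ratio of FRZB to RSPO3, with 1 FPKM added to each, was -5.29 in B1, -2.09 in B2 and -4.25 in B3, against 4.87 in L1, 2.69 in L2 and 2.44 in L3. Every Shandong black animal held more RSPO3 than FRZB RNA per unit of length, and every Luxi animal held more FRZB.

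**Figure D1:**
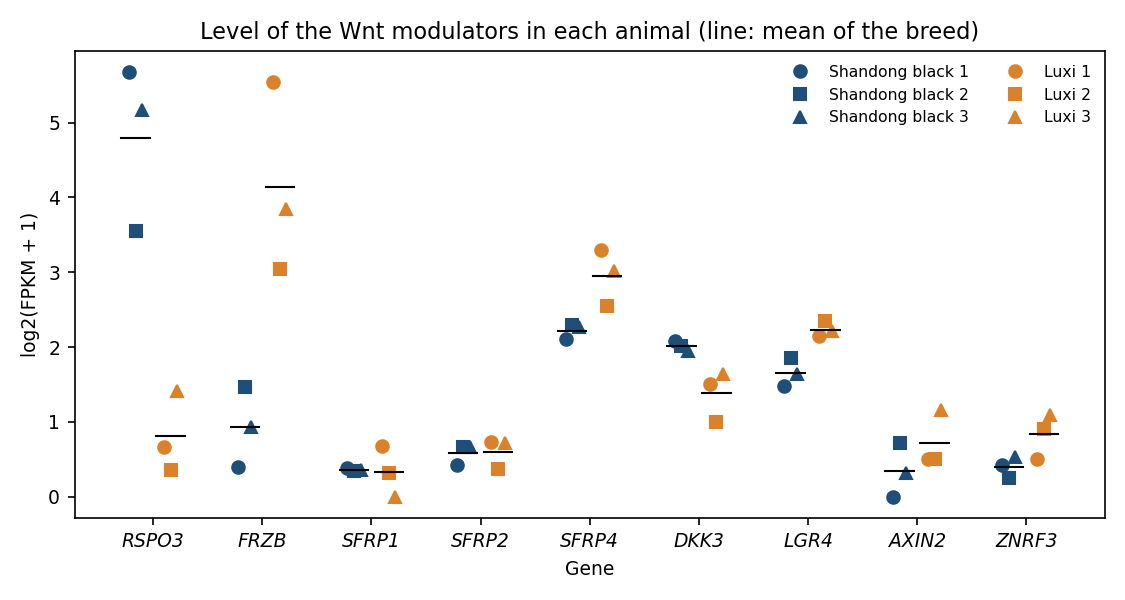
The level of each of the 9 genes in each animal on the log2(FPKM + 1) scale, with Shandong black in blue and Luxi in orange, the replicate number as the marker shape and a black line at the mean of the 3 animals of a breed. RSPO3 and FRZB lie far apart between the breeds in opposite directions, SFRP4 and LGR4 are somewhat higher and DKK3 somewhat lower in Luxi cattle, and the other genes overlap.

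The difference in RSPO3 lay along the whole transcript. The gene is on the minus strand of chromosome 9, at chr9:24092390-24186517 of the ARS-UCD1.2 assembly, with 5 exons of 2199 bases in all. Read depth per 10 aligned gigabases was 87.3 to 684 over the exons in Shandong black, against 1.19 to 25.7 in L2 and L3, and no exon overlapped between them. In L1 the annotated transcript was not listed. The value of L1 came from 1 unspliced piece of 506 bases over exon 1, of which 119 bases reached past the exon into the intron. The short length raises its FPKM. By aligned bases L1 was below L2, with 5.37 kb against 10.8 kb, and L3 had 64.1 kb. Without L1 the log2 fold change was -3.92, and with FPKM weighted by transcript length it was -4.15. In B3, an assembled transcript at 4.11 FPKM joined the 5 annotated exons with a further exon of 100 bases, at chr9:24098850-24098949 in the last intron, beside the annotated form at 31.0 FPKM.

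FRZB is on the plus strand of chromosome 2, at chr2:13692422-13730089, and here too all exons moved together. A single annotated transcript of 6 exons and 2350 bases carried the level in every animal, and the 3 other annotated forms were listed in L1 alone, each at about 0.002 FPKM. Read depth per 10 aligned gigabases over its exons was 2.69 to 32.3 in Shandong black and 45.0 to 613 in Luxi cattle. The breeds did not overlap at any of the 6 exons.

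**Figure D2:**
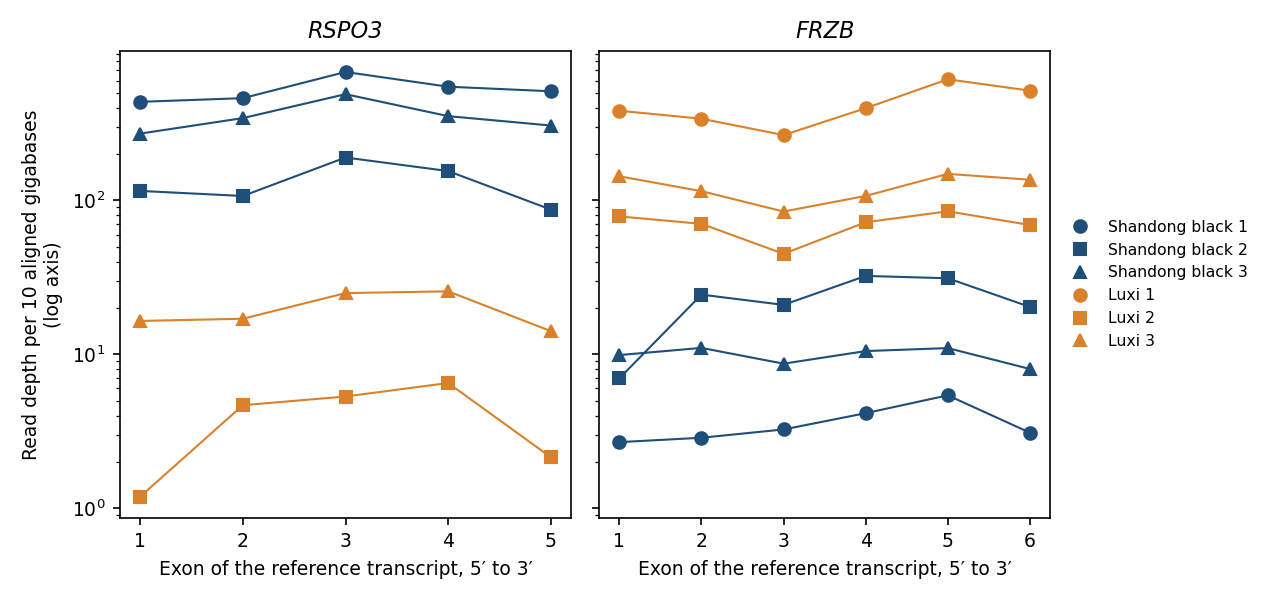
Read depth over each exon of the annotated RSPO3 and FRZB transcripts, per 10 aligned gigabases of the library on a log axis, with exons numbered from the 5′ end and 1 line for each animal. L1 has no RSPO3 line because the annotated transcript was not listed in it, and the lines of the breeds do not cross at any exon of either gene.

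The other secreted inhibitors differed less. SFRP4, a secreted Frizzled-related protein made by connective tissue cells, was at 3.29, 3.89 and 3.80 FPKM in B1, B2 and B3 and at 8.87, 4.86 and 7.07 FPKM in L1, L2 and L3. Every Luxi animal was above every Shandong black animal, with means of 3.66 ± 0.321 and 6.93 ± 2.01 FPKM (SD, n = 3 each). This gave a log2 fold change of 0.74 (SE 0.23), and of 0.57 without L1. DKK3, a secreted protein of the Dickkopf family, went the other way, with 3.22, 3.04 and 2.85 FPKM in Shandong black against 1.83, 0.993 and 2.13 FPKM in Luxi cattle. Its breeds did not overlap, the means were 3.04 ± 0.188 and 1.65 ± 0.588 FPKM (SD, n = 3 each), and the log2 fold change was -0.63 (SE 0.20). Counting annotated transcripts alone gave -0.96 (SE 0.53). That count left no DKK3 level in L2, where 1 assembled transcript of 7 exons carried it.

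SFRP1 and SFRP2, which also bind Wnt outside the cell, were low throughout. SFRP1 was at 0.301, 0.264 and 0.274 FPKM in Shandong black and at 0.591, 0.248 and 0 in Luxi cattle, and SFRP2 was at 0.346, 0.587 and 0.590 FPKM against 0.653, 0.290 and 0.637. Both overlapped between the breeds, with log2 fold changes of -0.03 (SE 0.19) and 0.01 (SE 0.14).

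The levels of the secreted Frizzled-related family can also be added up, as a description in which FRZB, chosen for its breed difference, sets much of the sum. The summed level of FRZB, SFRP1, SFRP2 and SFRP4 was 4.25, 6.50 and 5.56 FPKM in B1, B2 and B3, and 55.7, 12.6 and 21.2 FPKM in L1, L2 and L3. SFRP4 made up 59.8 to 77.4% of the sum in Shandong black and 15.9 to 38.5% in Luxi cattle, whereas FRZB made up 7.35 to 27.1% and 57.2 to 81.9%. The lower share of SFRP4 in Luxi cattle went with a higher level of its own and reflects the larger sum. In Shandong black the order was SFRP4, FRZB, SFRP2 and SFRP1 by mean level, and FRZB and SFRP2 overlapped among the animals. In Luxi cattle FRZB came first and SFRP4 second, their ranges over the animals overlapped through L1 and L2, and SFRP2 and SFRP1 overlapped at the bottom.

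SFRP5, the remaining family member, was not among the chosen names and was counted with the other Wnt genes below. Its level was 5.88, 2.91 and 5.49 FPKM in Shandong black and 0.204, 1.42 and 1.35 FPKM in Luxi cattle, with no overlap. Its log2 fold change was -1.56 (SE 0.42), and limma with Benjamini-Hochberg adjustment over all genes tested gave an adjusted p of 0.0593, which did not pass the threshold. With SFRP5 added to the sum, FRZB made up 3.08 to 18.7% in Shandong black and 51.4 to 81.6% in Luxi cattle, and SFRP5 30.9 to 58.0% and 0.364 to 10.1%.

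LGR4, a receptor for R-spondins, was modestly higher in the breed where RSPO3 was low. It was at 1.78, 2.60 and 2.13 FPKM in B1, B2 and B3 and at 3.41, 4.07 and 3.65 FPKM in L1, L2 and L3. The breeds did not overlap, and the animals of a breed were close together, with means of 2.17 ± 0.413 and 3.71 ± 0.334 FPKM (SD, n = 3 each). The log2 fold change was 0.58 (SE 0.12).

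ZNRF3, the ubiquitin ligase that R-spondins hold back, and AXIN2, the feedback inhibitor, were both low. ZNRF3 was at 0.337, 0.193 and 0.437 FPKM in Shandong black and at 0.419, 0.874 and 1.13 FPKM in Luxi cattle, and the breeds overlapped through B3 and L1 (log2 fold change 0.44, SE 0.19). The level of B3 came from an assembled transcript shorter than the annotated one. By share of aligned bases, given at the end, the breeds did not overlap. AXIN2 was listed at 0 in B1 and was at 0.645 and 0.247 FPKM in B2 and B3, against 0.411, 0.415 and 1.23 FPKM in the Luxi animals, with overlap (log2 fold change 0.37, SE 0.30). Of the AXIN2 level, 16.5% lay on annotated transcripts and the rest on assembled pieces, and with annotated transcripts alone the log2 fold change was -0.003, so that no direction can be read for this gene.

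Of the 9 genes, 5 had a mean of at least 1 FPKM in a breed, the limit for entering the fit across genes, and RSPO3 and FRZB passed it only through the breed where each was high. SFRP1, SFRP2, AXIN2 and ZNRF3 stayed below it. No call is given for the 5 that passed, since they were chosen with the contrast known. Over the whole table, limma called 249 of 9765 genes tested, or 2.55%, at an adjusted p under 0.05 together with a change of 1 or more on the log2 scale, with 1.56% higher and 0.993% lower in Luxi cattle. All 5 had breeds that did not overlap, as had 29.1% of all genes tested. Of these, 3 were higher in every Luxi animal, as were 20.0% of all genes tested, and 2 were lower, as were 9.10%. These counts are those of genes chosen for the contrast and are read no further.

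The number of genes called over the whole table depended on single animals. It was 15 without B1, 3 without B3, 591 without L1, 48 without L2 and 86 without L3. Of the 249 genes, 152 were higher and 97 lower in Luxi cattle, but median-of-ratios size factors gave 116 higher and 147 lower. That scaling also moved the median over all genes tested from a log2 fold change of 0.134 to 0.017. Against the shifted centre, RSPO3 stood at -4.10, FRZB at 3.10, SFRP4 at 0.61, DKK3 at -0.74 and LGR4 at 0.46, so that no direction among them turned.

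Beyond these names, few genes of the pathway passed the test. Of 112 other Wnt pathway genes listed by role, 80 were matched and 54 entered the fit. By limma with Benjamini-Hochberg adjustment, 2 rose in Luxi cattle (NKD2 and CTNNBIP1), 1 fell (WNT5A) and 51 did not pass. That is 5.56% of the 54, beside 2.55% of all genes tested, and the breeds did not overlap for 15 of them, or 27.8%, beside 29.1% of all genes tested. Their median log2 fold change was 0.17, beside 0.13 for all genes tested. The count of 3 fell to 0 without B1, B3, L2 or L3, to 1 without B2, and rose to 6 without L1.

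Among the ligands and the proteins that release them, 1 of 4 tested genes was called lower in Luxi cattle and none higher. An unadjusted p under 0.05 in limma was found for 3, in mixed directions. WNT5A and WLS were lower in Luxi cattle, and WNT9A was higher in every Luxi animal (log2 fold change 0.65, SE 0.25, limma adjusted p = 0.173). Of the WNT9A level, 7.41% lay on annotated transcripts. WNT5A, a ligand known mainly for signalling without β-catenin, was at 3.29, 1.76 and 3.41 FPKM in Shandong black and at 0.903, 0.638 and 0.621 FPKM in Luxi cattle. Its breeds did not overlap, and the log2 fold change was -1.12 (SE 0.23) with an adjusted p of 0.0479 by limma, which ranged from 0.0193 to 0.202 over the alternative settings. The size of the change also depended on the transcripts counted, at -1.90 on annotated transcripts alone and -0.61 with FPKM weighted by transcript length. WLS, which carries Wnt proteins to the cell surface, was the most abundant gene of this group, with a log2 fold change of -0.77 (SE 0.31, limma adjusted p = 0.161) and animals that overlapped.

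None of the 9 receptors tested passed in limma, where 1 had an unadjusted p under 0.05. FZD7, the Frizzled receptor with the highest level, was at 21.8, 9.06 and 19.5 FPKM in Shandong black and 8.85, 12.5 and 6.96 FPKM in Luxi cattle, and the breeds overlapped. The 5 other genes of the R-spondin branch on the list, RSPO1, RSPO2, RSPO4, LGR6 and RNF43, were not analysed here, so RSPO3, LGR4 and ZNRF3 stand for that branch alone. Of 5 other secreted or surface inhibitors, none passed and 2 had an unadjusted p under 0.05 in limma, in opposite directions. SFRP5 was lower in Luxi cattle, as given above, and DKK1 was higher in every Luxi animal (log2 fold change 0.88, SE 0.28, limma adjusted p = 0.108). KREMEN1, a co-receptor for Dickkopf proteins and the most abundant of the 5, had a log2 fold change of 0.70 (SE 0.41, limma adjusted p = 0.28).

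Inside the cell, none of the 16 genes of the destruction complex and signal relay passed, and 1 had an unadjusted p under 0.05 in limma. The log2 fold change was -0.19 (SE 0.17) for CSNK1A1, the kinase that primes β-catenin for removal, and 0.47 (SE 0.19) for the scaffold APC. Among 11 nuclear factors, 1 rose, 7 had an unadjusted p under 0.05 in limma, and the median log2 fold change of the group was 0.66. CTNNBIP1, which keeps β-catenin from binding TCF factors, was at 1.21, 1.29 and 1.33 FPKM in Shandong black and at 3.54, 3.13 and 4.47 FPKM in Luxi cattle, without overlap. Its log2 fold change was 1.04 (SE 0.12, limma adjusted p = 0.0291), close to the limit of 1, and with size factors it was 0.93 and no longer called. PYGO1, a β-catenin co-activator with the highest level of the group, had a log2 fold change of 0.72 (SE 0.36, limma adjusted p = 0.227).

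Of 5 other target genes, 1 rose, the only one with an unadjusted p under 0.05 in limma. NKD2, a feedback inhibitor that binds Dishevelled, was at 0.760, 0.703 and 0.905 FPKM in Shandong black and at 3.01, 3.08 and 5.46 FPKM in Luxi cattle. The breeds did not overlap, and the log2 fold change was 1.40 (SE 0.23, limma adjusted p = 0.0291). On annotated transcripts alone, which carried 54.9% of its level, the log2 fold change was 0.99 and the adjusted p by limma 0.158. CD44, a surface receptor and the most abundant target listed, had a log2 fold change of -0.67 (SE 0.35, limma adjusted p = 0.26). No planar polarity gene passed among 4 tested, and 1 had an unadjusted p under 0.05. ANKRD6, which steers Wnt signals away from β-catenin, had a log2 fold change of 1.24 (SE 0.39, limma adjusted p = 0.0903), and DAAM1 one of 0.49 (SE 0.32, limma adjusted p = 0.339).

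**Figure D3:**
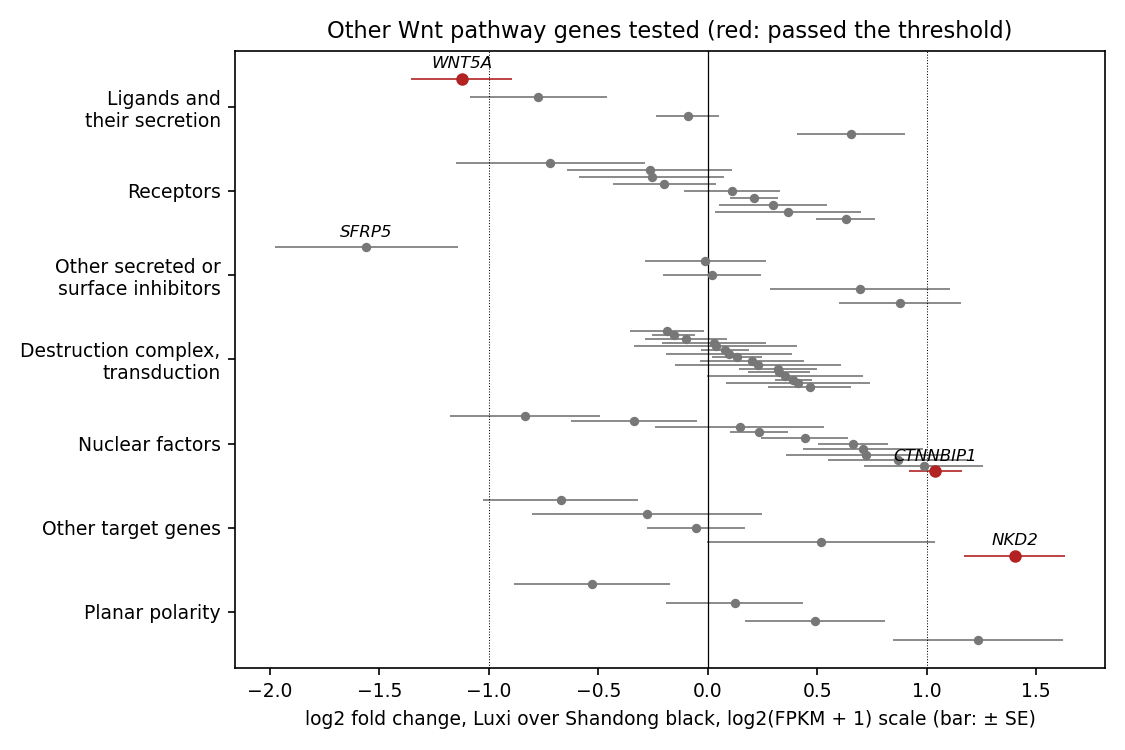
The log2 fold change of each of the 54 other Wnt pathway genes tested, Luxi over Shandong black on the log2(FPKM + 1) scale, grouped by role, with bars of 1 SE and dotted lines at the size limit of 1. NKD2, CTNNBIP1 and WNT5A, in red, passed the threshold, and SFRP5 lies farther from 0 than any of them without passing.

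The nearest tested genes on either side of RSPO3 and FRZB, some of them far away, differed between the breeds by much less. For RSPO3 they were ECHDC1 and RNF146 on one side, at 91.5 and 63.9 kb. On the other side TRMT11 and HINT3 lay at 1070 and 1140 kb, and no tested gene was closer. Their log2 fold changes were -0.12, -0.26, 0.01 and -0.24. For FRZB they were DUSP19 and NCKAP1 on one side, at 202 and 56.2 kb, and DNAJC10 and PDE1A on the other, at 64.0 and 414 kb. Their log2 fold changes were -0.16, 0.19, -0.23 and 0.27. None of the 8 passed in limma, with adjusted p from 0.417 to 0.992, and RNF146 alone had breeds that did not overlap.

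The genes whose pattern over the 6 animals was most like that of RSPO3 were also low in Luxi cattle and lowest in B2 within Shandong black. They were picked for that likeness, so the shared pattern follows from the choice and is not a separate finding. Likeness was measured as the root mean square difference in log2(FPKM + 1), each gene centred on its own mean, for which the median gene was at 2.19. The closest were ENAH, an actin regulator, at 0.414, C15H11orf52 at 0.434, the stretch-responsive muscle gene ANKRD1 at 0.541, XIST at 0.554 and the growth factor HBEGF at 0.618. ANKRD1 was at 1700, 241 and 1110 FPKM in B1, B2 and B3 and at 31.6, 65.4 and 135 FPKM in L1, L2 and L3. For FRZB the closest were the cyclic AMP responsive factor CREM at 0.451, LOC112442545 at 0.525, the slow-fibre myosin light chain MYL3 at 0.537, the metabolic co-activator PPARGC1A at 0.671 and ASCC1 at 0.727, beside a median gene at 1.77. MYL3 was at 13.1, 46.4 and 26.6 FPKM in Shandong black and at 1180, 63.5 and 244 FPKM in Luxi cattle. It was highest in L1 as FRZB was, which again follows from the choice by likeness.

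Several cell type markers moved with the breeds as well. Of 7 adipocyte markers tested, 4 were called lower in Luxi cattle by limma and none was called higher. The 4 were FABP4, ADIPOQ, PLIN1 and CIDEC, with log2 fold changes from -3.90 to -2.78. LPL went the other way and was higher in every Luxi animal (log2 fold change 0.85, SE 0.21, limma adjusted p = 0.106). ADIPOQ was no longer called on annotated transcripts alone (limma adjusted p = 0.0535) or with a pseudocount of 0.1 (0.0604), nor CIDEC with that pseudocount (limma adjusted p = 0.058). The summed level of the list was 162 to 222 FPKM in Shandong black against 56.7 to 75.0 in Luxi cattle. Of 7 markers of fibro-adipogenic progenitors and fibroblasts, the collagen gene COL3A1 rose (log2 fold change 2.94) and none fell, and the sum was 125 to 178 against 370 to 508 FPKM. COL3A1 and COL1A1 carried that separation of the sums. The other 6 genes of the list summed to 119, 87.0 and 105 FPKM in B1, B2 and B3. In L1, L2 and L3 they summed to 194, 152 and 108 FPKM, which overlaps. Among these 6, PDGFRA and CD34 were higher in every Luxi animal. Their log2 fold changes were 0.38 and 0.67 (limma adjusted p = 0.262 and 0.302). DCN, LUM, DPP4 and PI16 overlapped, and PI16 had a log2 fold change of -1.08 (SE 0.48, limma adjusted p = 0.164). Of 5 tendon markers, the cartilage matrix gene COMP fell (log2 fold change -3.52), with a sum of 66.2 to 177 against 33.4 to 96.3 FPKM. COMP was lowest in B2 among Shandong black animals, as RSPO3 was, at 9.06 FPKM beside 44.3 in B1 and 32.4 in B3. This was not particular to COMP. Among Shandong black animals B2 also had the lowest adipocyte, fibroblast, tendon, macrophage, satellite cell and Schwann cell sums. The muscle fibre, endothelial, mural and blood sums were not lowest in B2.

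Of 6 mural markers, NOTCH3 rose (log2 fold change 1.08), and the sum was 57.4 to 68.9 FPKM in Shandong black and 39.4 to 247 FPKM in Luxi cattle, the highest in L1, where FRZB was also highest. None of 5 endothelial markers passed in limma, where 2 had an unadjusted p under 0.05, and their sum was 19.5 to 20.8 against 24.8 to 66.0 FPKM. The sums were 29.7 to 40.8 against 14.9 to 30.8 FPKM for macrophage markers, 4.14 to 6.10 against 6.14 to 19.5 for satellite cell markers, 9.47 to 11.9 against 12.3 to 30.2 for Schwann cell markers and 0.494 to 0.734 against 0.583 to 1.42 for blood markers. None of 8 muscle fibre, 5 macrophage, 4 satellite cell and 1 Schwann cell markers passed in limma, where 2, 2, 1 and 1 had an unadjusted p under 0.05, and no blood marker entered the fit. No listed marker was at 0 in all animals, while PAX7 and SOX10, the defining markers of satellite and Schwann cells, and VWF, ALAS2, PPBP and SLC4A1 were not analysed here. The number of markers called, 7, fell to 2 without B1, 1 without B3, 3 without L2 and 4 without L3. The part of any of these cells in the levels of RSPO3, FRZB or the other genes was not tested.

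**Figure D4:**
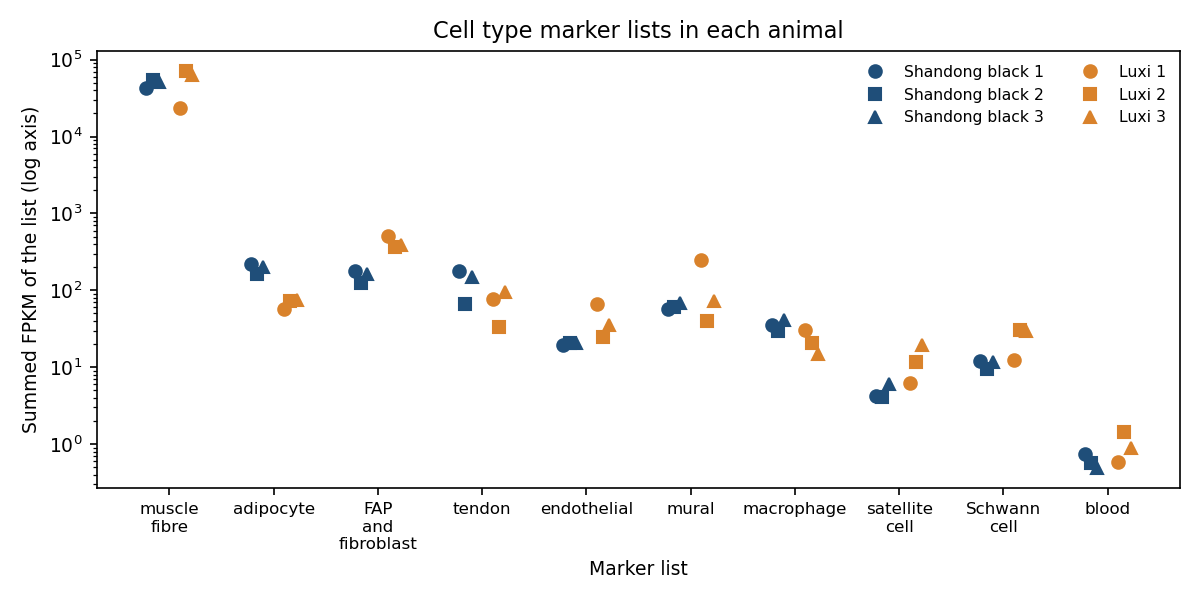
Summed FPKM of each cell type marker list in each animal on a log axis, with Shandong black in blue and Luxi in orange. The adipocyte sums are lower and the fibro-adipogenic progenitor (FAP) and fibroblast sums higher in all 3 Luxi animals, the latter through COL3A1 and COL1A1, and L1 has the lowest muscle fibre sum and the highest endothelial and mural sums.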

How the data were processed

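The authors deposited 1 table per animal, in which StringTie had assembled transcripts from the aligned reads and given each a coverage, an FPKM and a TPM. The file headers name StringTie 1.3.3b in stranded mode with a guide annotation on ARS-UCD1.2, and the Methods of the study give Fastp, HISAT and another StringTie version. Coverage is the deposited mean read depth over a transcript, and the deposited FPKM is coverage over the total of aligned bases, so that their ratio gave the aligned gigabases. A transcript that was not listed counted as 0.

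Gene FPKM was the sum over annotated transcripts and over assembled ones of the same strand that had 50% or more of their bases in its exons. The assembled transcripts not used amounted to 21.9 to 30.8% of all FPKM in a library. FPKM values of short assembled pieces add up to more than the reads of the gene warrant, as for AXIN2, so a length-weighted sum was added after the data were seen. Genes with a mean of at least 1 FPKM in a breed were tested with limma 3.58.1 in R 4.3.3 (lmFit and eBayes with a trend on log2(FPKM + 1), no covariate, Benjamini-Hochberg adjustment over all genes tested), after checks on simulated data. Calls needed an adjusted p under 0.05 together with a change of 1 or more on the log2 scale. Cuffdiff, which the study used, needs alignments and was not run. No counting error is given because read counts were not used, and precision is limited by 3 animals a breed.

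The members and the gene lists were chosen with earlier results of these data known. Named besides the members are the called Wnt genes, the most abundant gene and the gene of largest change of each role group, the 5 genes most like RSPO3 and FRZB, the markers and the nearest tested genes. WNT9A and DKK1 were named in addition, after the data were seen. The alternatives were a pseudocount of 0.1, no filter, a mean of at least 5 FPKM, TPM, size factors, quantile normalization, no trend, annotated transcripts alone, assembled ones at 90% of their bases, a replicate block and leaving out each animal. The marker sum without 2 collagen genes was added after the data were seen. Coordinates are those of the files, counted from 1. No sequence is printed.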

Additional observations from a re-analysis of the deposited data

How the results depend on the processing

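The direction of RSPO3, FRZB, SFRP4, DKK3 and LGR4 was kept under each alternative that gave a value, and leaving out each animal in turn gave log2 fold changes of -4.61 to -3.55, 2.52 to 3.77, 0.57 to 0.94, -0.76 to -0.44 and 0.49 to 0.67. With a pseudocount of 0.1 the log2 fold change of RSPO3 was -5.12. Of all genes tested, 249 (152 higher and 97 lower in Luxi cattle) were called, against 65 (42 and 23) without a filter, 139 (84 and 55) at a mean of at least 5 FPKM and 156 (93 and 63) on annotated transcripts alone. Size factors called 147 lower and quantile normalization 162 lower. Leaving out an animal gave 3 to 591 genes, 2 to 465 higher and 1 to 126 lower, 0 to 6 other Wnt genes and 1 to 9 cell type markers. The other Wnt genes called, 3 in all, were 0 without a filter, 0 at a mean of at least 5 FPKM and 1 with the length-weighted sum, which was chosen after seeing the data, and markers numbered 2 without a filter. The cause of these differences was not tested. Fewer animals entered the fits that left out an animal. Fewer genes entered at a mean of at least 5 FPKM, and more genes entered without a filter. WNT5A lost its call in 9 of 16 alternatives, CTNNBIP1 in 10 and NKD2 in 7, and SFRP5 gained one in 3, namely size factors, quantile normalization and without L1. Among the markers, PLIN1 kept its call in all 17 alternatives, whereas ADIPOQ lost it in 9, CIDEC and COMP in 5 each, FABP4 in 4 and COL3A1 in 1 of 17, and NOTCH3 in 12 of 16.

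Both breeds use the replicate numbers 1 to 3, which label different animals. The deviations of same-numbered animals from their breed means correlated at 0.0905, 0.0899 and 0.0816 across 9765 genes, all other pairs lay between -0.111 and 0.00785, and so each animal correlated best with its own number. Deviations from a breed mean sum to 0 for each gene, so these correlations depend on each other, and some matching of the animals has to come out best. They are at most a hint from the data alone and were too weak to treat the numbers as pairs. With the replicate number as a block, 134 genes were called (79 higher and 55 lower) and 1 other Wnt gene, NKD2.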

Other observations

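Unassigned assembled transcripts that overlapped the span of RSPO3 or ZNRF3, which enter no gene level above, also differed between the libraries. They are given as shares of the aligned bases of a library, in ppm.

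In the last intron of RSPO3, B1 and B3 each held a long assembled transcript on the strand of the gene. It ran over chr9:24118378-24135419 in B1, at 6.77 FPKM over 17015 bases, and over chr9:24118378-24139911 in B3, at 4.30 FPKM over 21507 bases, each unbroken except for a gap of 27 bases. These transcripts took 115 and 92.5 ppm of the aligned bases, beside 110 and 77.6 for the gene itself, so about as many bases were read from this stretch as from the exons. B2, with 23.6 ppm in the gene, had no such transcript, nor had L2 or L3. L1 had 35 unassigned unspliced pieces that overlapped the gene on the same strand, 4.51 ppm in all beside 0.299 in the gene. The low value of L1 thus rests on a locus where the pieces left out held more aligned bases than the gene level.

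In ZNRF3 the introns and the gene level ran opposite ways. Unassigned transcripts on the strand of the gene took 15.5, 15.1 and 13.8 ppm in B1, B2 and B3 and 3.71, 1.19 and 0.416 in L1, L2 and L3, without overlap. The gene itself took 2.23, 1.27 and 2.61 ppm in Shandong black and 2.77, 5.68 and 7.47 in Luxi cattle, also without overlap, whereas its FPKM overlapped through B3 and L1. Nearly all of these transcripts were single unspliced pieces, 25, 60 and 53 in B1, B2 and B3 and 9, 2 and 0 in L1, L2 and L3. The breed difference in these shares was not tested.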
